A study of Mus musculus with 6 samples.

Results

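The 87 genes described here encode the proteins of the cytosolic ribosome. They were chosen by gene name: protein-coding genes whose symbol starts with Rpl or Rps followed by a number, together with Rplp0, Rplp1, Rplp2 and Rpsa, without the kinase genes whose symbols start with Rps6k. They are 87 of the 15903 genes that reached 10 counts when all libraries were summed. The name rule took 77 canonical subunit genes (46 of the large and 31 of the small subunit), 6 copies of such genes (Rpl7l1, Rpl22l1, Rpl36al, Rpl39l, Rps27l and Rps27rt), 3 genes that carry a pseudogene name but are typed as protein-coding (Rpl10-ps3, Rpl9-ps6 and Rps18-ps5) and Rps19bp1, which encodes a binding protein of Rps19 and no ribosomal subunit. Rack1 and Fau also encode ribosomal proteins, but their names lie outside the rule, and they are given with the other lists.

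RNA was sequenced from bone-marrow-derived macrophages (BMDMs), which are macrophages grown from bone marrow with the growth factor M-CSF (10 ng/ml, 7 days). The marrow came from 3 Cx3cr1GFP mice on the C57BL/6J background, in which GFP sits in the Cx3cr1 locus, so that control and treated cells carried the same allele. The labels give no age. Cells of each mouse were left unstimulated (control, n = 3) or were given 62 mM excess NaCl for 24 h (NaCl, n = 3), and adherent cells were used. Replicate numbers are mouse numbers, so that control replicate 2 and NaCl replicate 2 come from the same mouse.

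A ribosome consists of a small subunit, which reads the mRNA, and a large subunit, which joins the amino acids, and each ribosomal protein is present mostly once per ribosome. Growing cells therefore hold the mRNAs of these proteins at high levels and change them together. Most of these mRNAs begin with a run of pyrimidines, the 5′ terminal oligopyrimidine (TOP) tract, through which mTORC1 and the binding protein LARP1 control their translation and stability. A change in translation of these mRNAs would not be seen in the measurements given here, which are mRNA counts.

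The counts assigned to genes ranged from 4088065 in NaCl replicate 3 to 20123570 in control replicate 3. NaCl replicate 2 stood apart from the other libraries in these genes, as described below, and most named members whose direction rested on it are also given without mouse 2. Macrophage markers were high in every library, with summed levels of 15250 to 17200 CPM (counts scaled to a fixed library size) in the control libraries and of 24230 to 31590 CPM in the NaCl libraries. Of these 10 markers, 2 rose without a block (Lyz2 and Cd14). With the mouse as a block, Csf1r rose as well (2083 and 3443 CPM in control and NaCl; edgeR adjusted p = 0.000298), and Mertk (93.4 and 47.4 CPM; 4.28e-06) and Mrc1 (365.6 and 185.5 CPM; 1.4e-05) fell. Markers of other cells were lower: the 10 neutrophil markers summed to between 249.2 and 542.1 CPM, the 5 monocyte markers to between 94.0 and 286.6 CPM and dendritic, B cell, stromal and erythroid markers to no more than 10.4 CPM each, and none of 4 T cell markers was among the genes tested. Of the markers of other cells, the monocyte marker Ifitm6 rose in both fits (2.61 and 28.3 CPM; edgeR adjusted p = 0.00997 without the block), and the neutrophil markers Mpo (11.2 and 7.03 CPM) and Ngp (103.8 and 66.9 CPM) fell with the block (edgeR adjusted p = 0.0245 and 0.0189). The mitochondrial share of counts was 1.53 ± 0.126% in control and 1.52 ± 0.277% in NaCl libraries (mean ± SD, n = 3 each), and that of the nuclear RNAs Malat1 and Neat1 was 0.237 ± 0.0561% and 0.324 ± 0.0223%. Of all libraries, the mitochondrial share was lowest in NaCl replicate 2 (1.28%) and highest in NaCl replicate 3 (1.82%). The part of these shares and of the marker changes in the results below was not tested.

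Stretches of C and T lie near the annotated start of some, but not all, members on which the results below turn. They lie over that start itself in only part of these. Shown, so that they can be compared, are 30 bases from RefSeq (GRCm38.p6), written 5′ to 3′ on the strand of the gene, from 10 bases before the annotated transcription start to 20 bases from it onwards. Base 11 of each window is the annotated start, and capitals mark the longest run of C and T in the window.
Rpl13a: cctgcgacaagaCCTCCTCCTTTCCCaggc
Rps12: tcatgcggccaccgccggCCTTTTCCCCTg
Rplp2: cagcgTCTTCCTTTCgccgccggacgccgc
Rps27: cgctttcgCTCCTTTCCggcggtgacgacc
Rpl22l1: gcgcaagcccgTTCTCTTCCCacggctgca
Rps27l: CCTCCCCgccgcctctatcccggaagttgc
These windows lie at chr7:45128726-45128755 (Rpl13a, minus strand), chr10:23787190-23787219 (Rps12, minus strand), chr7:141447641-141447670 (Rplp2, plus strand), chr3:90213629-90213658 (Rps27, minus strand), chr3:28805498-28805527 (Rpl22l1, plus strand) and chr9:66946076-66946105 (Rps27l, plus strand). The marked run covers the annotated start in Rplp2 and Rps27. It begins 1 base after it in Rpl22l1, 2 bases after it in Rpl13a and 8 bases after it in Rps12, and in Rps27l, for which RefSeq also lists a second start, it lies at bases 1 to 7 and so wholly before the start. In these 4 genes the marked run is thus no tract at the annotated start. Of other members named below, the longest run in this window was 3 bases in Rpl37 and Rpl41 and 4 in Rps28. It was 4 to 7 bases at the starts of Rps19 and 10 in Rpl38. RefSeq held 75 starts for 64 of the 87 members. A run of C and T of at least 8 bases anywhere in this window, searched on the gene's strand only, was present at 24 of the 75 member starts (32.0%) and at 11.2% of all 32851 starts. A C at the annotated start itself followed by 4 bases that are C or T was present at 18.7% of the member starts and at 2.51% of all starts. These are matches of letters at annotated starts and no measurement of where transcription began in these cells.

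The members took up nearly the same share of the counts in all control libraries, and their share ranged more widely in the NaCl libraries. In bulk RNA, fewer cells that hold an mRNA and less of it per cell cannot be told apart. Their share was 2.23%, 2.17% and 2.21% in the control libraries of mice 1, 2 and 3, and 2.30%, 2.67% and 2.01% in their NaCl libraries. The groups overlapped: NaCl replicate 2 lay above and NaCl replicate 3 below every control library. The group means were 2.20 ± 0.0306% in control and 2.33 ± 0.329% in NaCl (mean ± SD, n = 3 each), a difference of 0.124 percentage points (two-sided exact permutation test, p = 0.70, where 0.10 is the smallest p that 3 against 3 libraries allow). Without mouse 2 the difference was -0.0643 percentage points. Within mice the share differed by 0.0711, 0.50 and -0.200 percentage points in mice 1, 2 and 3 (exact sign-flip test over mice, p = 0.75, smallest possible 0.25). Both subunits showed the same picture, with shares of 1.26 ± 0.0270% and 1.34 ± 0.210% for Rpl genes and of 0.944 ± 0.0163% and 0.986 ± 0.121% for Rps genes in control and NaCl libraries.

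**Figure D1:**
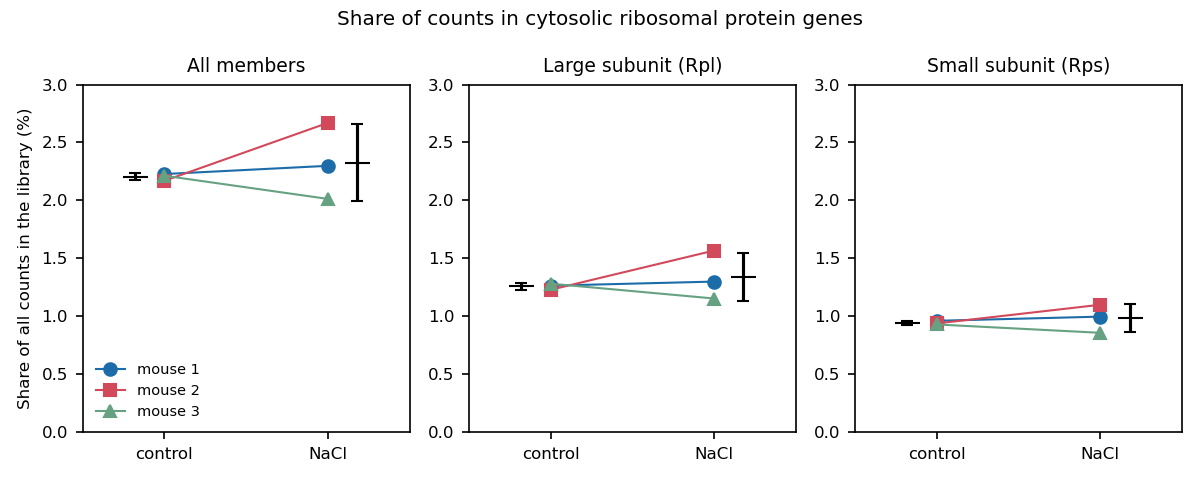
Share of each library's counts (%, y axis from 0) in all 87 members and in the Rpl and Rps genes, for control and NaCl libraries. Points joined by a line are from the same mouse, and black bars give the group mean ± SD (n = 3); control libraries lay between 2.17% and 2.23%, and NaCl libraries between 2.01% and 2.67%.

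No member passed an adjusted p of 0.05 in the comparison of 3 NaCl with 3 control libraries (edgeR quasi-likelihood test, Benjamini-Hochberg adjustment over 15903 genes), where 0.654% of all genes tested did. At an unadjusted p under 0.05 there were 2 of 87 members, Rpl13a and Rps27l, against 12.6% of all genes tested. DESeq2 and limma-voom also called 0 members. With the mouse as a block in edgeR, Rpl13a rose and Rps27l fell, which is 2 of 87 members (2.3%) beside 8.90% of all genes tested. DESeq2 with the same block called 0 of 87 members, beside 5.07% of all genes, and so did edgeR with the block after all libraries were thinned to the smallest total (0 of 82, beside 5.89%). The control and NaCl libraries did not overlap in 8 members (9.2%), namely Rpl3, Rpl4, Rpl13a, Rpl22, Rps27a, Rps27l and the barely detected Rpl10-ps3 and Rps27rt, beside 19.0% of all genes tested.

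The median log2 fold change of the 87 members was 0.04, beside -0.01 for all genes tested, with 51 members above and 36 below 0. Of the 79 members that averaged 50 counts or more in a library, the middle 50% of values lay between -0.05 and 0.15. The 52 Rpl genes and the 35 Rps genes had medians of 0.04 and 0.05. For 49 of these 79 members the 95% interval of the log2 fold change lay entirely within ±0.5, and for 72 of them within ±1. The other 7, whose interval reached past 1, were Rpl13a, Rpl22l1, Rpl37, Rpl41, Rplp1, Rplp2 and Rps28. With the mouse as a block, the interval lay within ±0.5 for 65 of the 79 and within ±1 for 78, with Rpl13a as the exception.

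**Figure D2:**
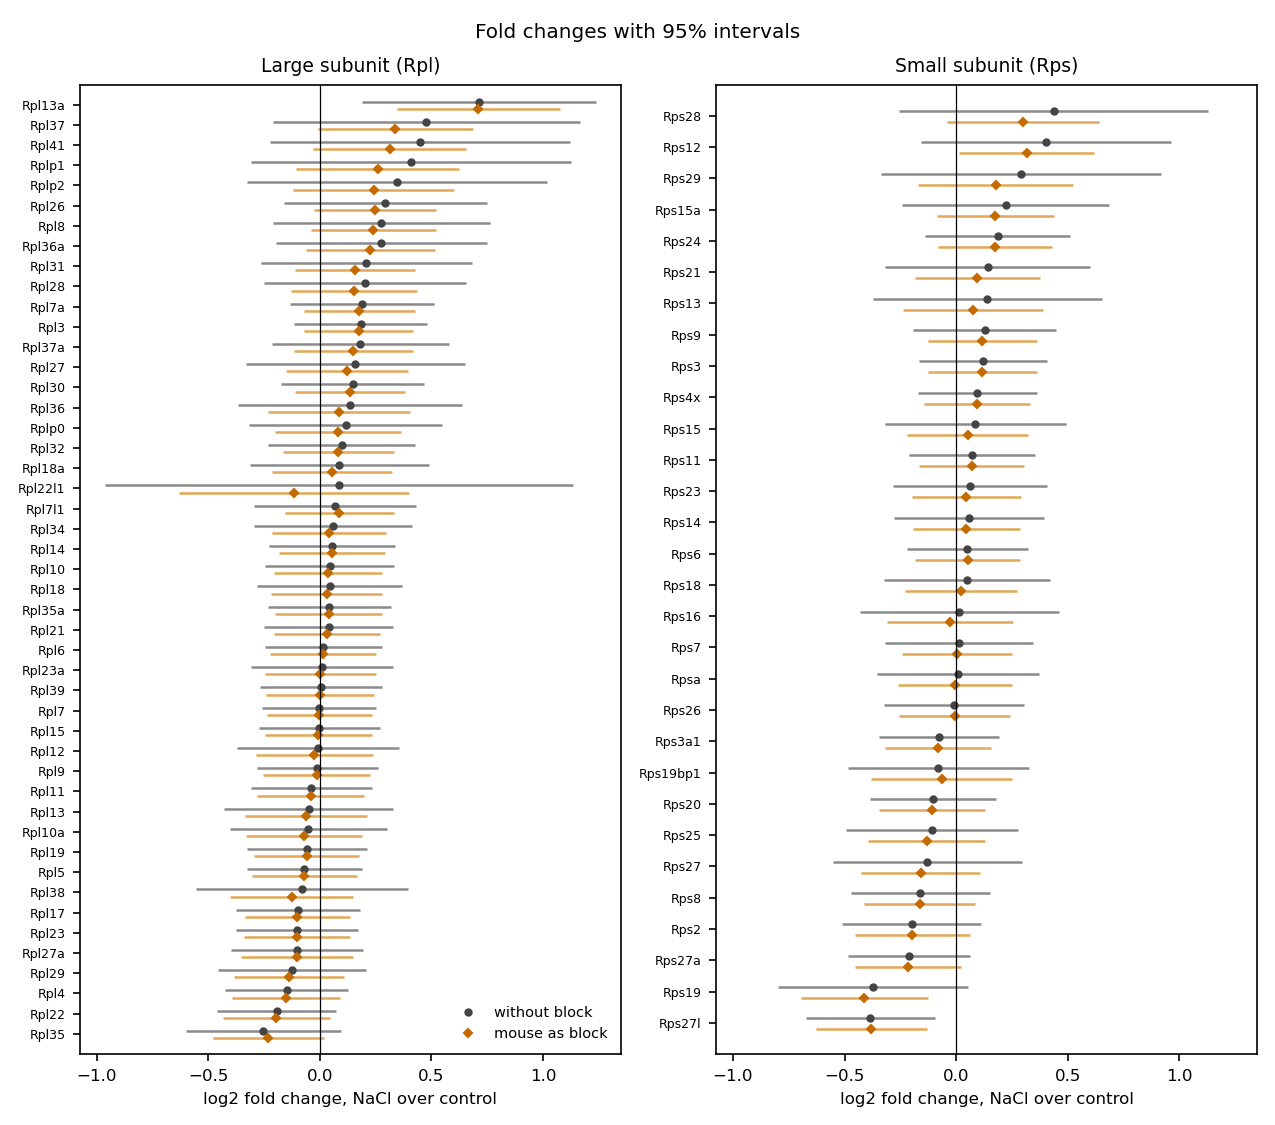
log2 fold change of NaCl over control (x axis) with its 95% interval for 77 of the 79 members with a mean of at least 50 counts, large subunit at the left and small subunit at the right. Dark circles are from the fit without a block and orange diamonds from the fit with the mouse as a block; most intervals include 0, Rpl13a stands furthest to the right (0.71) and Rps27l furthest to the left (-0.38) in the fit without the block.

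Rpl13a encodes a large subunit protein that is also known, in interferon-treated monocytes, as part of a complex that silences the translation of inflammatory mRNAs. Its level was 12.2, 13.8 and 17.8 CPM in the control libraries of mice 1, 2 and 3 and 21.5, 31.9 and 17.97 CPM in their NaCl libraries. Every NaCl library was above every control library, but in mouse 3 the control and NaCl values were nearly equal. The within-mouse log2 differences were 0.81, 1.201 and 0.01. The log2 fold change was 0.71 ± 0.24 (SE; 1.64-fold), with an adjusted p of 0.251 in edgeR without a block and of 0.00972 with the mouse as a block. Leaving out mouse 2 gave 0.43 with the block (edgeR adjusted p = 0.0787). At 75 to 353 counts per library, Rpl13a had the lowest level per kb of transcript of all canonical members above the mean of 50 counts (18.3 CPM per kb, against a median of 333). Of its transcript's windows of 75 bases, 56.3% also occur in another gene, and 35.4% of its exonic length overlaps Gm45713, and unstranded reads from the shared part cannot be assigned to either gene.

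Rps27l, a copy of Rps27 that is known as a target of p53, was lower in all 3 mice. Its level was 73.3, 85.4 and 88.4 CPM in the control libraries and 65.3, 59.0 and 65.4 CPM in the NaCl libraries, in the order of the mice, and the groups did not overlap. The log2 fold change was -0.38 ± 0.13 (SE; a level of 0.766 of the control), with an adjusted p of 0.263 in edgeR without a block and of 0.0496 with it. Without mouse 2 it was -0.29 with the block (edgeR adjusted p = 0.098). Its canonical partner Rps27, on another chromosome, had 177.5, 164.5 and 145.2 CPM in control and 186.1, 108.6 and 150.9 CPM in NaCl libraries, with a log2 fold change of -0.13 ± 0.19 (edgeR adjusted p = 0.832). Thus NaCl replicate 2 was the lowest library for both genes, and in the other mice Rps27 was slightly higher in NaCl.

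**Figure D3:**
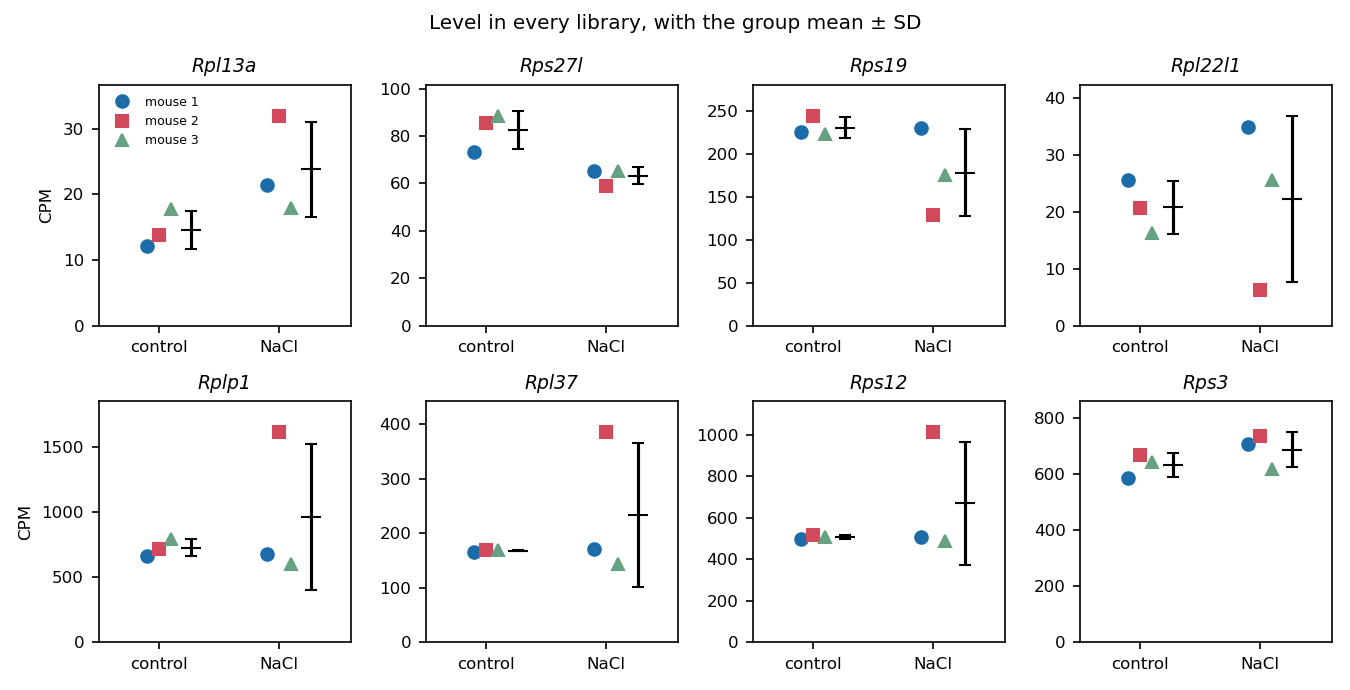
Level in CPM (y axes from 0, scaled per gene) of 8 members in every library, with symbols and colours for the mice and black bars for the group mean ± SD (n = 3). NaCl replicate 2 (red square) lies about 2-fold above all other libraries in Rplp1, Rpl37 and Rps12 and below them in Rps19 and Rpl22l1, whereas Rps27l was lower in all 3 NaCl libraries and Rps3 overlapped between the groups.

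The differences between NaCl and control pointed in different directions in the 3 mice. Over the 79 members with a mean of at least 50 counts, the within-mouse log2 difference (NaCl minus control) had a median of 0.03 in mouse 1, 0.23 in mouse 2 and -0.17 in mouse 3, beside medians of 0.00, -0.01 and -0.03 for 9924 genes with the same mean count. In mouse 1 all but one of these members, Rpl13a, lay within ±0.5. In mouse 2 the members ranged from -1.69 to 1.201, with 21 above 0.5 (26.6%, beside 12.6% of the 9924 genes) and 5 below -0.5 (6.33%, beside 13.6%). In mouse 3, 66 of the 79 were lower in NaCl (83.5%, beside 53.6%). NaCl replicate 2 was the highest of 6 libraries for 62.0% of these members and NaCl replicate 3 the lowest for 59.5%, beside 27.6% and 20.5% of all 9924 genes. In all 3 mice, 4 of the 79 members were higher in NaCl (5.06%, beside 23.6% of the 9924 genes), among them Rpl3, Rpl13a and Rpl30, and 12 were lower (15.2%, beside 25.9%).

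**Figure D4:**
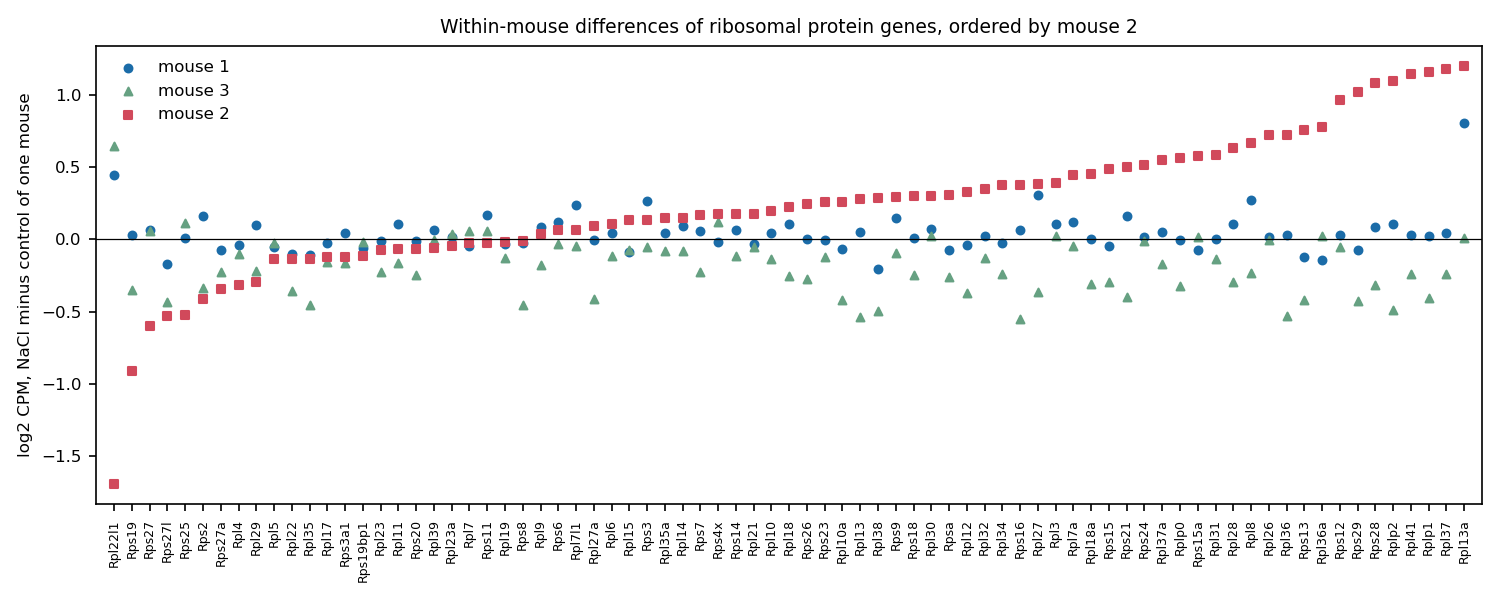
Difference in log2 CPM between NaCl and control of the same mouse (y axis) for 77 of the 79 members with a mean of at least 50 counts, ordered along the x axis by the value of mouse 2. Mouse 1 (blue circles) stays near 0 except at both ends, mouse 3 (green triangles) lies mostly below 0, and mouse 2 (red squares) spans -1.69 (Rpl22l1) to 1.201 (Rpl13a).

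In NaCl replicate 2 an excess of about 2-fold was seen in a minority of the members, but in a larger part of them than of all genes. The within-mouse difference was above 0.8 (log2) in 8 of 79, beside 412 of 9924 genes. Smaller differences were broader, and 55 of the 79 were higher in NaCl in mouse 2, beside 4884 of the 9924. Beside Rpl13a, the members with a within-mouse difference above 0.8 in mouse 2 were Rplp1 and Rplp2 of the stalk, Rpl37, Rpl41, Rps12, Rps28 and Rps29. Rpl37, a zinc-binding protein of the large subunit, had 166.4, 168.9 and 168.8 CPM in the control libraries and 171.8, 384.5 and 143.0 CPM in the NaCl libraries. Thus 5 libraries lay close together and NaCl replicate 2 was 2.27-fold above the control of its mouse. Rps12, a protein of the head of the small subunit, had 496.0, 516.9 and 508.3 CPM in control and 507.8, 1010 and 489.9 CPM in NaCl libraries. Its fold change was 0.40 ± 0.25 (log2, SE; edgeR adjusted p = 0.559) and -0.00045 without mouse 2. Rpl41, which encodes the smallest ribosomal protein, had 277.6, 277.3 and 274.7 CPM in control and 283.1, 613.7 and 232.6 CPM in NaCl libraries. Without mouse 2 the fold changes of Rpl37 and Rpl41 were -0.08 and -0.09 (log2), so that their direction rested on NaCl replicate 2.

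Other members were low in NaCl replicate 2 only or mostly. Rps19, the small subunit protein most often mutated in Diamond-Blackfan anaemia, had 225.4, 244.3 and 223.1 CPM in control and 230.2, 129.5 and 175.1 CPM in NaCl libraries. NaCl replicate 1 lay within the control range and the other 2 below it. Its fold change was -0.37 ± 0.19 (log2, SE; edgeR adjusted p = 0.458, and 0.0625 with the mouse as a block), and without mouse 2 it was -0.13. Rpl22l1, a copy of Rpl22 that can take its place in the ribosome, had 25.5, 20.7 and 16.2 CPM in control and 34.8, 6.25 and 25.6 CPM in NaCl libraries. It was higher in NaCl in mice 1 and 3 (log2 differences of 0.45 and 0.65) and lower in mouse 2 (-1.69). Over all libraries the log2 fold change was 0.08 ± 0.47 (SE; edgeR adjusted p = 0.968), and with mouse 2 left out and the mouse as a block, a choice made after its values were seen, it was 0.55 ± 0.15 (edgeR adjusted p = 0.00394). That fit, which holds only mice 1 and 3, called 2 of 85 members, beside 9.57% of all genes tested. For both members, mouse 2 was the mouse that went the other way, so the p-values of that fit cannot decide whether they changed. Rpl22, the partner of Rpl22l1, had 218.3, 210.7 and 228.2 CPM in control and 204.1, 191.8 and 178.5 CPM in NaCl libraries. The groups did not overlap, at a log2 fold change of -0.19 ± 0.12 (edgeR adjusted p = 0.553). In the fit without mouse 2 and with the block, Rpl38, a large subunit protein, was lower by -0.34 ± 0.11 (log2, SE; edgeR adjusted p = 0.0368). Its level over all libraries was 85.2, 96.4 and 87.6 CPM in control and 73.8, 117.6 and 62.0 CPM in NaCl libraries, so that NaCl replicate 2 was again opposite to the other NaCl libraries.

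Base composition and transcript length moved with these differences across all genes. In mouse 2, the median log2 difference was -0.36 in the eighth of all genes with the lowest GC content and 0.21 in the eighth with the highest, and in mouse 3 it was 0.08 and -0.12. Mouse 3 also had a median of -0.15 in the eighth with the shortest transcripts, where most of the members lie (median length of 775 bases, against 2392 for all genes). Once GC content and length were corrected for, the median of the 79 members was 0.01, 0.18 and -0.07 in mice 1, 2 and 3, and their SD in mouse 2 was 0.46, against 0.49 before. Rpl37 then differed by 1.24, Rplp1 by 0.96, Rps12 by 0.86, Rps19 by -1.13 and Rpl22l1 by -1.29 in mouse 2, against 1.19, 1.16, 0.97, -0.91 and -1.69 without the correction. Across the 79 members the Spearman correlation with GC content was 0.247 in mouse 2 and -0.443 in mouse 3, as a description over genes that share their libraries. What set NaCl replicate 2 apart in these genes was not tested.

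Grouped by place in the ribosome, no listed member passed the test for single genes in either fit. The groups as such were not tested. In the stalk that recruits elongation factors, Rplp0, Rplp1, Rplp2 and Rpl12 had log2 fold changes of 0.12, 0.41, 0.35 and -0.01, and none passed. Their higher values rested on NaCl replicate 2: without mouse 2 those of Rplp0, Rplp2 and Rpl12 were -0.16, -0.20 and -0.20. Rplp1 had 663.4, 719.5 and 794.8 CPM in control and 676.1, 1610 and 599.9 CPM in NaCl libraries (edgeR adjusted p = 0.656), and without mouse 2 its log2 fold change was -0.18. Rpl5 and Rpl11, which carry the 5S rRNA and, when free of the ribosome, bind the p53 regulator MDM2, were close to level. Rpl5 had 211.8, 210.3 and 214.0 CPM in control and 204.2, 191.5 and 210.8 CPM in NaCl libraries, with a 95% interval of the log2 fold change from -0.33 to 0.19. For Rpl11 that interval ran from -0.31 to 0.23. Of the 8 proteins listed at the exit tunnel, where the new peptide leaves, 0 passed and the median was -0.03 (log2). Rpl26 was at 0.29 ± 0.20 and Rpl35 at -0.25 ± 0.16 (log2, SE; edgeR adjusted p = 0.606 and 0.551), the ends of that group, and without mouse 2 they were at 0.02 and -0.30. Of the exonic length of Rpl35, 66.2% overlaps Wdr38, and unstranded reads from the shared part cannot be assigned to either gene.

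In the small subunit, Rps2 and Rps3 line the mRNA entry site. Rps3 had 588.0, 669.9 and 642.4 CPM in control and 707.7, 737.2 and 619.5 CPM in NaCl libraries, and Rps2 had 381.5, 474.3 and 475.1 against 427.2, 355.8 and 375.9 CPM. Their log2 fold changes were 0.12 ± 0.13 and -0.20 ± 0.14 (edgeR adjusted p = 0.753 and 0.612), and the groups overlapped in both. At the platform and mRNA exit, Rps14, Rps21, Rps26, Rps28 and Rpsa ranged from -0.01 to 0.44, of which Rps28 was the highest through NaCl replicate 2 (254.5 CPM, against 88.4 to 125.6 CPM in the other 5 libraries). Without mouse 2 these 5 lay between -0.16 (Rpsa) and -0.01 (Rps14), with Rps28 at -0.08. Rps27a is made as a fusion with ubiquitin. It had 364.1, 374.7 and 351.9 CPM in control and 346.4, 295.0 and 300.4 CPM in NaCl libraries, lower in all 3 mice without overlap, at -0.21 ± 0.12 (log2, SE; edgeR adjusted p = 0.525, and 0.291 with the mouse as a block). Of 9 genes mutated in Diamond-Blackfan anaemia, 0 passed in either fit and the median was -0.01. The 4 members on the X chromosome, Rpl10, Rpl36a, Rpl39 and Rps4x, lay between 0.00 and 0.28 (log2), with 0 past the test, and the highest, Rpl36a, was at -0.05 without mouse 2.

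Levels per kb of transcript differed more between members than any member differed between groups. Among canonical members with a mean of at least 50 counts, the level over all 6 libraries ran from 18.3 CPM per kb (Rpl13a) to 1691 CPM per kb (Rplp1), with a median of 333. Next to Rplp1 came Rps12 with 1007, Rpl32 with 878.5 and Rpl41 with 747.1 CPM per kb. The order was kept between libraries: over the 79 members, the Spearman correlation of CPM was between 0.869 and 0.992 for the 15 pairs of libraries, given as a description. Counting bears on these levels, in a part that was not tested. Of the 87 members, 83 share at least 1 window of 75 bases with another annotated gene, mostly processed pseudogenes, and the median member shares 50.3% of its windows. That part was larger in several members described above, among them Rps27 (98.5%), Rpl5 (92.5%), Rpl35 (89.2%) and Rps12 (82.5%). Rps3, Rps19bp1 and Rpl39l are among those that share none. The 37 annotated pseudogenes of ribosomal proteins summed to only 24.4 to 38.6 CPM in a library, and 0 of them passed either fit. The length used was that of 1 annotated transcript per gene.

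Of the members, 8 had a mean under 50 counts, and little can be said about them. The canonical Rpl24 and Rps10 were at 0.698 and 2.99 CPM per kb. Rpl24 had 3, 3 and 24 counts in the control and 1, 2 and 3 counts in the NaCl libraries. Of its windows 80.9% occur in another gene, and 47.0% of its exonic length overlaps the transcript Gm28037. Rps10 had 11, 25 and 41 counts in control and 14, 14 and 4 in NaCl libraries, and overlaps the readthrough gene RPS10-NUDT3. These values say nothing about how much of these proteins' mRNA the cells held. The other 6 were the copies Rpl36al, Rpl39l and Rps27rt and the 3 with a pseudogene name, with log2 fold changes from -1.66 (Rpl10-ps3, edgeR adjusted p = 0.447) to -0.14 (Rpl36al) and none past the test. The tissue-restricted copies Rpl3l and Rpl10l had 2 and 0 counts in all and were below the filter. Their partners Rpl3 and Rpl10 were at 411.4 ± 0.886 and 466.7 ± 63.8 CPM (Rpl3, control and NaCl, mean ± SD, n = 3 each; edgeR adjusted p = 0.628) and at a log2 fold change of 0.04 ± 0.13 (Rpl10). Without mouse 2 the log2 fold change of Rpl10 was -0.03.

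The rest of the apparatus that makes and feeds ribosomes was level with them in part. The ribosomal genes Rack1 and Fau, outside the rule, had log2 fold changes of 0.24 and -0.05 and passed neither fit (edgeR adjusted p = 0.662 and 0.934 without the block), and of 23 other TOP mRNAs, such as those of elongation factors, 0 passed either fit, with a median of 0.04. Of 64 genes of ribosome biogenesis, 0 passed without the block, and with it 2 were higher. They were Polr1c, a subunit of RNA polymerases I and III (20.5 and 29.5 CPM in control and NaCl; edgeR with the block, adjusted p = 0.0147), and Dkc1, the pseudouridine synthase (28.9 and 38.8 CPM; edgeR with the block, adjusted p = 0.0406). Of 9 hosts of small nucleolar RNAs with a TOP tract, 0 passed without the block and Zfas1 was higher with it (17.7 and 26.8 CPM; edgeR adjusted p = 0.00869). Of 77 mitochondrial ribosomal protein genes the same 1 passed in both fits, Mrps6, with levels of 6.60, 6.88 and 7.16 CPM in the control and of 22.9, 36.0 and 33.8 CPM in the NaCl libraries, and the list's median was 0.01.

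Among regulators, Eif4ebp1, which encodes the translation repressor 4E-BP1 that mTORC1 inactivates, fell in both fits. Its mean level was 74.2 and 37.99 CPM in control and NaCl libraries, at a log2 fold change of -0.96 ± 0.17 (SE; edgeR adjusted p = 0.0455). Of 24 genes of the mTORC1 list it alone passed without the block, and with the block Sesn2, an inhibitor of mTORC1 upstream, was lower as well (37.5 and 20.6 CPM; edgeR adjusted p = 0.000395). Larp1, whose protein binds the TOP tract, had a log2 fold change of -0.11 ± 0.17, and Myc, an activator of ribosomal protein transcription, of 0.35 ± 0.40 (edgeR adjusted p = 0.833 and 0.766). Of 35 initiation factor genes 0 passed without the block, and with it Eif2s2 was lower (92.1 and 58.0 CPM; edgeR adjusted p = 0.00107).

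The cytosolic aminoacyl-tRNA synthetases, which load tRNAs for the ribosome, held more genes that were lower. Of 19 tested, 0 passed without the block and 9 fell with it (median of -0.27, log2), beside 1 fall among 87 members. Of all 15903 genes tested, 684 fell and 732 rose with the block, and 28 fell and 76 rose without it. Aars1 had mean levels of 212.5 and 126.8 CPM in control and NaCl libraries (edgeR with the block, adjusted p = 0.000298). Cell division genes moved the other way: of 15, 3 rose without the block and 14 with it, such as Ccnb1 (30.8 and 56.0 CPM; edgeR adjusted p = 0.0276 without the block). The difference between these lists and the members was not tested.

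**Figure D5:**
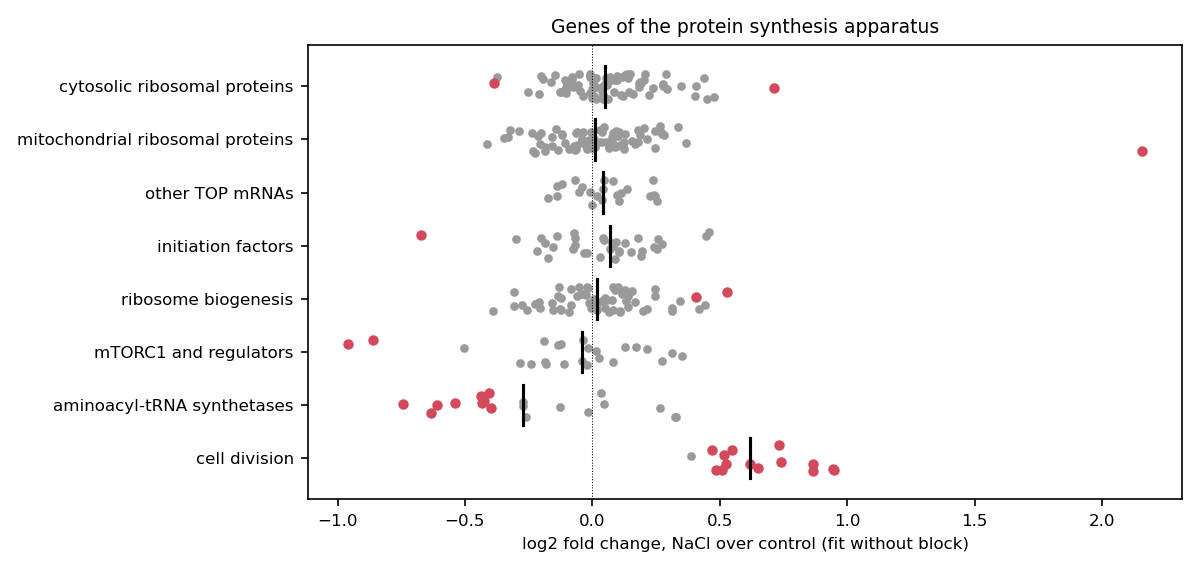
log2 fold change of NaCl over control in the fit without a block (x axis) for the genes of 8 lists (rows), each point a gene, spread vertically for visibility. Members are the 79 with a mean of at least 50 counts; red points passed an adjusted p of 0.05 with the mouse as a block, and black lines are medians, which lay at -0.27 for synthetases, at 0.62 for cell division genes and near 0 for the others.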

How the data were processed

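The authors trimmed the reads of 6 libraries with fastp (0.20.0), aligned them to mm10 with STAR (2.7.10b) and deposited, for each gene, its raw count of reads. The deposited normalized signal, counts divided by DESeq2 size factors, was used only for gene names and types. Positions of genes are not given because the named annotation, GENCODE vM32, belongs to another build. Promoters came from RefSeq, and transcript lengths, GC content and shared windows from GENCODE M21.

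Genes whose counts summed to 10 or more were tested in edgeR 4.0.16 (TMM, glmQLFit and glmQLFTest, Benjamini-Hochberg adjustment, threshold 0.05). CPM used TMM-scaled library sizes, and log2 CPM a prior count of 2. The labels name the same mice in both groups, which pairs the libraries. Deviations of same-mouse libraries from their group means correlated at 0.426, 0.151 and 0.217 across all genes, and at 0.523, -0.0487 and -0.0941 across the 79 members with a mean of at least 50 counts. For control and NaCl libraries of different mice the values ran from -0.35 to 0.124 across all genes and from -0.527 to 0.343 across these members. The fit with the mouse as a block is given where it changes a call. Of 100 simulated 2-fold changes among 15542 genes, the fit without the block recovered 59 and the fit with it 98. There were 1 and 17 false calls among genes left unchanged. Every simulated gene was given a mouse effect, which favours the fit with the block. These counts therefore do not tell what the block gains in the members.

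The named members were the copies and their partners, the 4 highest and 4 lowest fold changes, the 8 smallest p with the block, the extremes of level per kb and fixed structural groups. Members and lists were chosen with earlier results of these data known. Synthetase symbols were matched through RefSeq synonyms, and Nars1, Snhg3 and Polr1g were not matched. Alternatives were the block, DESeq2 1.42.0, limma-voom (limma 3.58.1), other scalings and filters, a loess correction (span 0.5) for length and GC content, thinning to the smallest library's total and leaving out each library. Leaving out mouse 2 was chosen after the data were seen. Some items are not reported here.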

Additional observations from a re-analysis of the deposited data

How the results depend on the processing

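The median log2 fold change of the members (0.04) lay between -0.08 and 0.09 when each library was left out, the Rpl median between -0.07 and 0.09 and the Rps median between -0.09 and 0.13. Leaving out each library gave 0 members higher and 0 lower throughout, and differences in the share of counts from -0.0472 (without NaCl replicate 2) to 0.280 percentage points, and -0.0643 without mouse 2. One member was higher with the replicate block, with a minimum total count of 1, with the block and the GC and length correction (Rpl13a in each) and without mouse 2 with the block (Rpl22l1). One was lower with the replicate block (Rps27l, under no other setting) and without mouse 2 with the block (Rpl38). Over all genes these settings called 8.90% (block), 2.67% (minimum total count of 1), 13.7% (block and correction) and 9.57% (without mouse 2 with the block), against 0.654% in the reported fit. Rpl13a had adjusted p from 0.00471 (block and correction) upwards, and 0.0273 with a minimum total count of 1. Among the 244 genes of the other translation lists, 1 was higher and 1 lower in the reported fit, against 4 and 12 with the replicate block, 2 and 9 with DESeq2 and the block, 2 and 7 with a minimum total count of 1, 13 and 12 with block and correction, 3 and 8 with block and thinning, 5 and 12 without mouse 2 with the block, and 0 and 0 without it. DESeq2 alone gave 4 lower, and leaving out each library 1 higher and 0 to 3 lower. The cause of these differences was not tested. Of 38 named members, 25 had a fold change of the other sign under at least 1 setting, and none was past the threshold under such a setting. No other call of a named member changed with the block. NaCl replicate 3 was the least deep library, with 4088065 counts, and the 8 members with a mean under 50 counts could not be judged at this depth.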
